A study of Mus musculus with 8 samples.

Results

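AMPA receptors are the glutamate-gated channels that carry most fast excitatory transmission, and the genes described here are the 4 that encode their pore-forming subunits (Gria1, Gria2, Gria3 and Gria4) and 6 that encode auxiliary proteins of the same complex (Cacng2, Cacng3, Cacng8, Cnih2, Cnih3 and Shisa9). They were taken by symbol from a table of 24527 genes, and all 10 were present and passed the filter on low counts, which 15434 genes passed. Hippocampal RNA came from wild-type C57BL/6J male mice aged 20 weeks. The 4 control mice had been exposed, before birth and until weaning, to a low-phytoestrogen feed without bisphenol A (BPA, a building block of polycarbonate plastics with hormone-like activity), and the 4 BPA mice to the same feed with 50 mg of BPA per kg. Both groups ate the control feed from weaning on postnatal day 21. The labels describe the 4 samples of a group as independent biological replicates, and nothing in the labels ties them to litters, so p-values measure the spread between these samples.

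An AMPA receptor is a tetramer, assembled from the pore-forming subunits GluA1 to GluA4, which Gria1 to Gria4 encode. In the adult hippocampus most receptors combine GluA2 with GluA1 or with GluA3, and a receptor without edited GluA2 passes calcium. The auxiliary proteins bind the finished channel: the transmembrane AMPA receptor regulatory proteins (TARPs) stargazin (Cacng2), γ-3 (Cacng3) and γ-8 (Cacng8) carry it to the synapse and slow its closing, the cornichons (Cnih2 and Cnih3) aid its export and slow its closing further, and Shisa9 (CKAMP44) shapes how it desensitises, most prominently in dentate granule cells.

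The pore subunits differ functionally at a site in the pore loop, and its coding sequence is shown because the proportion of Gria2 among the 4 transcripts is what the subunit shares below measure. Each stretch of 48 bases runs 5′ to 3′ on the coding strand of the GENCODE transcript (mm10), lies within a coding exon and has in capitals the codon for glutamine that RNA editing recodes to arginine in Gria2 messenger RNA.
Gria1: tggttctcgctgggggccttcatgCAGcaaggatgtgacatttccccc
Gria2: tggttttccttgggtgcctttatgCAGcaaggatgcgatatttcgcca
Gria3: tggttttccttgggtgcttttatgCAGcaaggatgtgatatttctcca
Gria4: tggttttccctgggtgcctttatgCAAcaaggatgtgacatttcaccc

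The Gria1 stretch is at chr11:57243070-57243117 on the plus strand, that of Gria2 at chr3:80706890-80706937 on the minus strand, that of Gria3 at chrX:41610241-41610288 on the plus strand, and that of Gria4 at chr9:4464116-4464163 on the minus strand. Counted from the start codon, the capitalised codon is number 600 in Gria1, 607 in Gria2, 612 in Gria3 and 608 in Gria4. Gria2 and Gria3 were the most alike of the 6 pairs, with 45 of 48 bases identical, and Gria1 matched Gria2 and Gria3 at 39 bases each. All 4 genes encode glutamine at this codon in the genome. Read counts per gene do not show the edited base, so editing itself was not measured here.

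Library totals ran from 27.1 to 40.8 M (mega) counts in controls and from 43.1 to 54.01 M in BPA mice, so exposure and depth cannot be told apart by group. Markers of excitatory neurons summed to between 1898 and 2321 CPM (counts per 1000000 counts) in controls and between 2055 and 2251 CPM after BPA, and each of the 5 was detected in every library. Choroid plexus markers (7 genes) stood apart in control replicate 2, at 1907 CPM in sum while the remaining controls held 62.6 to 122 CPM. BPA replicate 3 stood apart as well, at 459 CPM against 35.7 to 164 CPM in the remaining BPA mice. CA1 pyramidal markers summed to 352 to 457 CPM in controls and, after BPA, 367 to 399 CPM, with 0 of 5 higher in BPA mice. Dentate granule cell markers summed to 392 to 564 CPM and 514 to 550 CPM, with 6 of 6 higher, against 50.0% of all genes. Also higher were 0 of 7 choroid plexus, 0 of 4 ependymal, 1 of 5 excitatory neuron and 1 of 4 microglial markers. The counts were 1 of 4 for oligodendrocyte precursors, 2 of 5 for oligodendrocytes and 2 of 4 for endothelium. They were 3 of 6 for CA3 and CA2, 3 of 5 for astrocytes and 5 of 7 for interneurons. Endothelial markers (4 genes) summed to 220 to 241 CPM in controls and 209 to 219 CPM after BPA, without overlap. Among single genes, 1.43% of all tested lay lower in BPA mice without overlap. Interneuron markers (7 genes) summed to 872 to 959 CPM in controls and 924 to 951 CPM after BPA. An unadjusted p under 0.05 was reached by 2 of 6 CA3 and CA2 markers and 2 of 5 oligodendrocyte markers, against 4.52% of all genes. The same held for 1 of 7 interneuron, 1 of 4 endothelial and 1 of 4 ependymal markers. It held for 0 in the other 7 lists, which include CA1, dentate granule cells and choroid plexus. The part of these cell types in the values below was not tested. In bulk tissue, fewer cells of a type and less RNA per cell cannot be told apart.

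Gria1 and Gria2 were by far the most abundant of the pore subunit transcripts, and per merged exon length the order of the 4 subunits was the same in every library. Levels of different genes are compared here as CPM per kb of merged exon length, as mean ± SD over all 8 mice. Gria1 stood at 217 ± 10.2 CPM per kb, Gria2 at 95.4 ± 4.99, Gria3 at 29.7 ± 1.05 and Gria4 at 12.97 ± 0.680. Among tested genes with a length, Gria1 was at percentile 99.4 and Gria2 at percentile 98.2, against 91.1 for Gria3 and 78.6 for Gria4.

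Of the 6 auxiliary members, Cnih2 was the most abundant on the same scale, at 132 ± 7.56 CPM per kb (percentile 98.8), above Gria2. The 15 further auxiliary proteins described below were not ranked. Cacng3 followed at 18.9 ± 1.91, Shisa9 at 16.8 ± 1.40, Cacng8 at 16.3 ± 1.24, Cnih3 at 14.2 ± 1.13 and Cacng2 at 10.5 ± 0.451 CPM per kb. In the order Cacng3, Shisa9, Cacng8, Cnih3 and Gria4 the mean of each gene lay within 2 SD of the next. These SDs are over mice and ignore that all genes were measured in the same libraries. They therefore do not decide the order of neighbours, and the order within each library was not tested. With the longest transcript as the length, Gria2 (143 CPM per kb) stood above Cnih2 (135). With the longest transcript linked to RefSeq, chosen after seeing the data, Cacng8 (27.7) stood above Cacng3 (18.9). The order of these genes thus depends on the gene model.

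None of the 10 genes passed the test between BPA and control mice. Testing used edgeR's quasi-likelihood method with Benjamini-Hochberg adjustment over all 15434 genes, and the adjusted p of the members ran from 0.955 to 0.981. Across all genes tested 0.0% passed an adjusted p of 0.05. At an unadjusted p under 0.05 there were 0 of 10 members, against 4.52% of all genes, and the groups were separated without overlap for 0 of 10 members, against 2.79% of all genes. Log2 fold changes ran from -0.070 to 0.12, with 6 members higher, 4 lower and a median of 0.026, against a median of 4.91e-05 over all genes. The 95% interval of the fold lay between 0.8 and 1.25 for all 10 members and for 68.0% of all tested genes. Their median SE was 0.055 against 0.075 over all genes. The coefficient of variation of CPM within a group was higher in controls for 7 of the 10 members (median 7.32% against 4.09% in BPA mice) and for 59.6% of all genes (medians 7.61% and 6.57%).

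**Figure D1:**
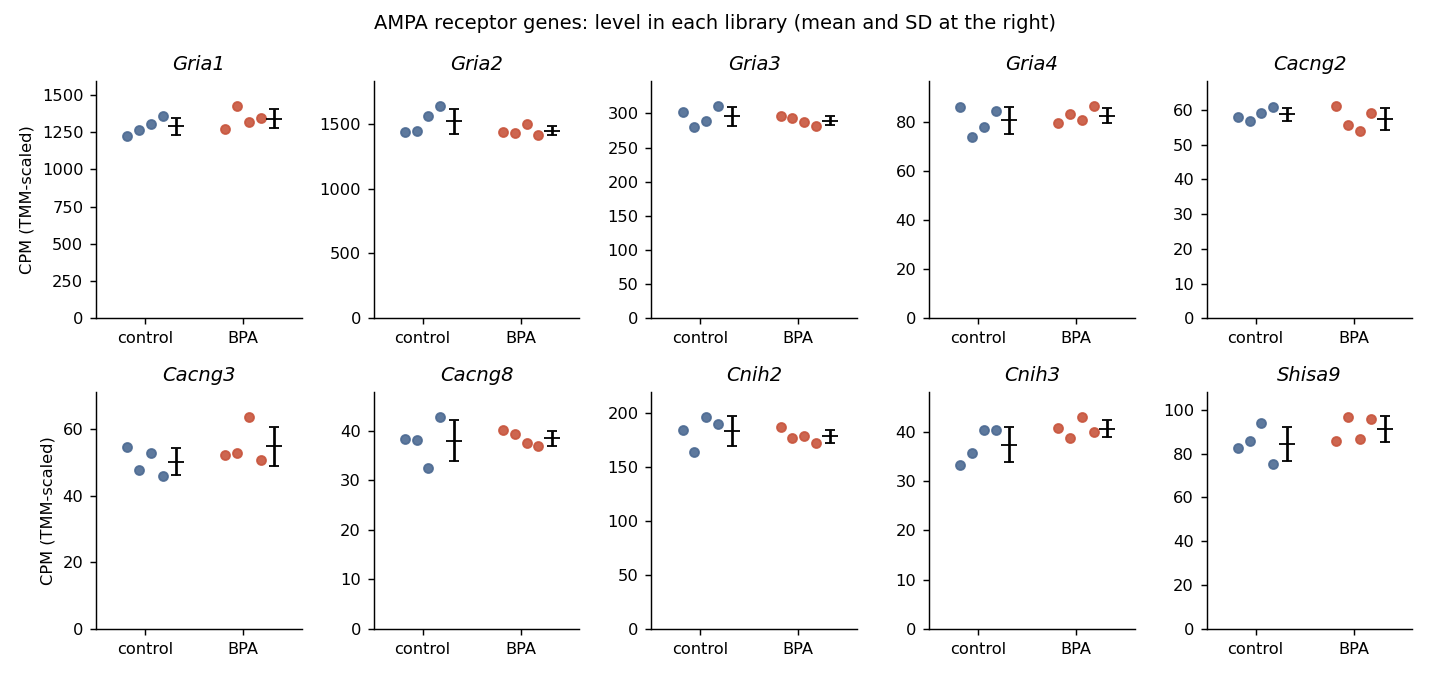
Level of each of the 10 genes in each library, in CPM after TMM scaling, with 4 control and 4 BPA mice as points and the group mean ± SD beside them. In all 10 panels the control and BPA points overlap.

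Gria1 encodes GluA1, the subunit that is inserted at synapses during long-term potentiation (chromosome 11, 57011387 to 57330244, plus strand). It was at 1223, 1267, 1306 and 1355 CPM in control replicates 1 to 4 and at 1271, 1422, 1317 and 1345 CPM in the same order of BPA replicates. BPA replicate 2 lay above every control and the other 3 BPA mice lay inside the control range. The means were 1288 ± 56.2 and 1339 ± 63.2 CPM, a log2 fold change of 0.056 ± 0.046 (estimate ± SE, edgeR unadjusted p = 0.244) with a 95% interval of the fold of 0.970 to 1.11. On leaving out 1 library the log2 fold change ran from 0.026 without BPA replicate 2 to 0.081 without control replicate 4.

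Gria2 encodes GluA2, the subunit whose edited form blocks calcium entry (chromosome 3, 80681450 to 80802835, minus strand). Controls were at 1437, 1441, 1562 and 1634 CPM and BPA mice at 1439, 1431, 1499 and 1417 CPM. Control replicates 3 and 4 lay above all 4 BPA mice, while control replicates 1 and 2 lay among them. The means were 1519 ± 96.4 and 1447 ± 36.2 CPM, and the log2 fold change was -0.070 ± 0.047 (edgeR unadjusted p = 0.163) with a fold interval of 0.888 to 1.02. It ran from -0.095 without control replicate 1 to -0.033 without control replicate 4. It was 0.057 ± 0.059 in a fit that held log2 of the library total as a covariate, a change of direction. With counts thinned to the smallest library total it was -0.074 ± 0.046.

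Gria3 encodes GluA3, which pairs with GluA2 (chromosome X, 41400854 to 41678601, plus strand). Its controls were at 302, 280, 289 and 310 CPM and its BPA mice at 296, 293, 287 and 281 CPM, all inside the control range. The log2 fold change was -0.031 ± 0.046 (fold interval 0.914 to 1.05). It ran from -0.056 without control replicate 2 to -0.0078 without control replicate 4, and was -0.011 with the library total in the fit.

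Gria4 encodes GluA4, a subunit of fast receptors that in hippocampus is found mainly in interneurons (chromosome 9, 4417896 to 4796234, minus strand). Its controls were at 86.2, 74.2, 78.3 and 84.7 CPM and its BPA mice at 79.7, 83.6, 80.9 and 86.5 CPM. Control replicate 2 was the lowest library and BPA replicate 4 the highest, with the rest interleaved. The log2 fold change was 0.033 ± 0.053 (fold interval 0.944 to 1.11), and it ran from -0.0065 without control replicate 2 to 0.066 without control replicate 1.

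**Figure D2:**
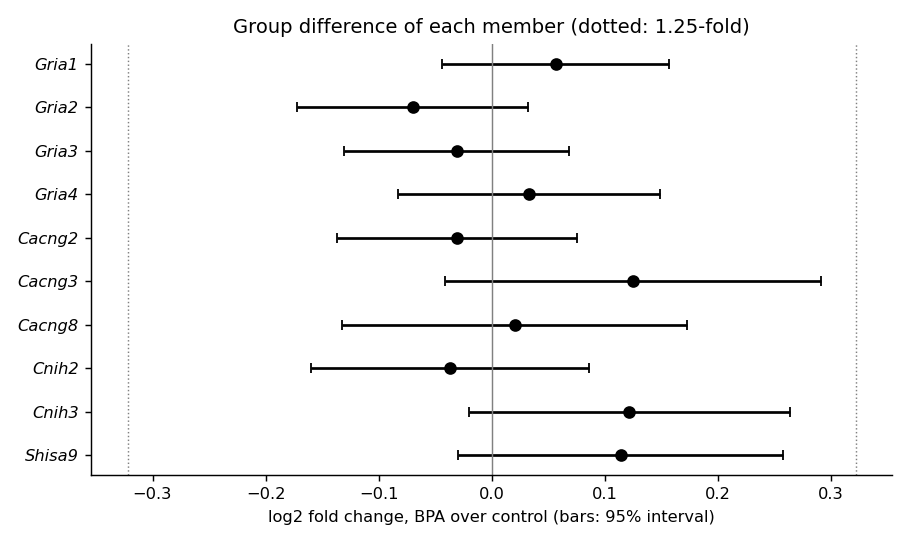
Log2 fold change of each gene, BPA over control, with its 95% interval from edgeR. All 10 intervals cross 0 and lie inside the dotted lines at 1.25-fold, and those of Cacng3, Cnih3 and Shisa9 are centred farthest to the right.

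Among the TARPs, Cacng2 encodes stargazin, whose loss in the stargazer mouse removes AMPA receptors from cerebellar granule cell synapses (chromosome 15, 77991748 to 78120028). It was at 58.0, 56.9, 59.0 and 61.0 CPM in controls, against 61.1, 55.7, 54.1 and 59.1 CPM after BPA. The 2 lowest libraries were BPA replicates 2 and 3, and the log2 fold change was -0.031 ± 0.049 (fold interval 0.909 to 1.05). It ran from -0.061 without BPA replicate 1 to -0.0030 without BPA replicate 3, and was 0.037 with the library total in the fit, a change of direction. Cacng2 shares 323 exonic bases with a gene on the opposite strand and Cnih2 shares 14, and whether counting used strand is not stated in the labels or headers, so both are uncertain to that extent.

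Cacng3 encodes TARP γ-3 (chromosome 7, 122670492 to 122769393). It was at 54.6, 47.9, 52.7 and 45.9 CPM in controls, against 52.2, 52.7, 63.6 and 50.8 CPM after BPA. Its log2 fold change was the highest of the 10, at 0.12 ± 0.076 (edgeR unadjusted p = 0.128; fold interval 0.972 to 1.22), and BPA replicate 3 was the only BPA library above every control. The log2 fold change ran from 0.046 without BPA replicate 3 to 0.17 without control replicate 1.

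Cacng8 encodes γ-8, the TARP that is most enriched in hippocampus (chromosome 7, 3390683 to 3415648). It was at 38.4, 38.2, 32.6 and 42.8 CPM in controls, which held both the lowest and the highest library, and at 40.1, 39.4, 37.5 and 37.0 CPM in BPA mice. The log2 fold change was 0.020 ± 0.070 (fold interval 0.912 to 1.13), and it ran from -0.045 without control replicate 3 to 0.078 without control replicate 4.

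Both cornichon members were measured well, and they sat far apart in level. Cnih2 (chromosome 19, 5092868 to 5098521) was at 184, 163, 196 and 189 CPM in controls, against 187, 177, 179 and 172 CPM after BPA. All BPA values lay inside the control range, and the log2 fold change was -0.037 ± 0.057 (fold interval 0.895 to 1.06). It ran from -0.088 without control replicate 2 to -0.0022 without control replicate 3, and was 0.043 with the library total in the fit, a change of direction.

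Cnih3 (chromosome 1, 181352628 to 181460641) had the smallest unadjusted p of the 10. It was at 33.4, 35.6, 40.4 and 40.4 CPM in controls, against 40.7, 38.8, 43.0 and 40.1 CPM after BPA. Control replicates 1 and 2 were below all BPA mice, and control replicates 3 and 4 were among them. The means were 37.4 ± 3.52 and 40.6 ± 1.76 CPM, with a log2 fold change of 0.12 ± 0.065 (edgeR unadjusted p = 0.0867, adjusted p = 0.955; fold interval 0.986 to 1.20). With the library total in the fit it was 0.33 ± 0.076 (edgeR unadjusted p = 0.0011, adjusted p = 0.998). On leaving out 1 library it ran from 0.069 without control replicate 1 to 0.16 without control replicate 3 (edgeR unadjusted p = 0.0337, adjusted p = 0.640).

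Shisa9 (chromosome 16, 11984113 to 12270902) was at 82.5, 85.9, 93.8 and 75.2 CPM in controls, against 85.9, 96.7, 86.7 and 95.9 CPM after BPA. BPA replicates 2 and 4 lay above every control, and the other 2 BPA mice lay inside the control range. The log2 fold change was 0.11 ± 0.066 (edgeR unadjusted p = 0.110; fold interval 0.980 to 1.20). It was 0.17 without control replicate 3, 0.063 without control replicate 4 and 0.022 in the fit with the library total.

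The makeup of the receptor pool was then described as shares, which need no scaling between libraries. Divided by merged exon length, Gria1 made up 60.3 ± 0.676% of the 4 pore subunit transcripts in controls and 62.0 ± 1.24% in BPA mice, and Gria2 27.6 ± 0.531% and 26.1 ± 1.03% (n = 4 each). Gria3 made up 8.48 ± 0.384% and 8.22 ± 0.317%, and Gria4 3.63 ± 0.275% and 3.67 ± 0.127%. These levels rest on the length used, which was not taken from the gene set that the counts follow. With the longest transcript, Gria1 stood at 52.5% and Gria2 at 31.7% over all 8 mice, and in reads not divided by length Gria2 (46.8%) exceeded Gria1 (41.4%).

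**Figure D3:**
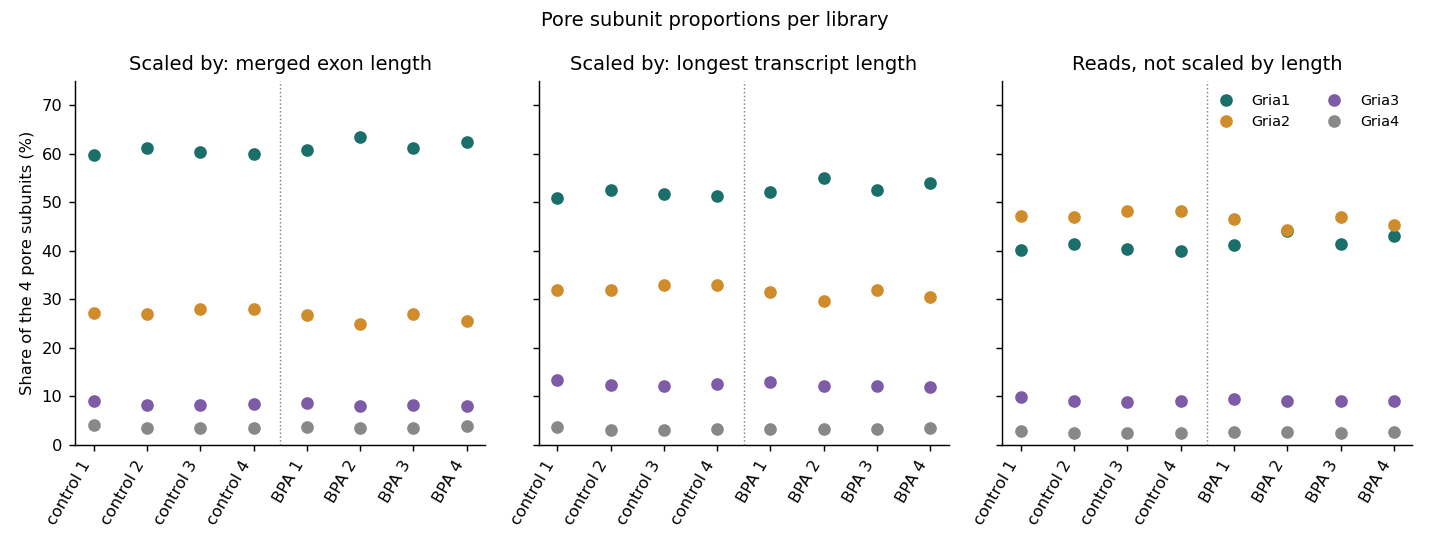
Share of each pore subunit among Gria1 to Gria4 in every library, scaled by merged exon length, by longest transcript length and without length. Within each panel the 8 libraries are close together, while the level of Gria1 and Gria2 shifts between panels, from 61.2% to 41.4% for Gria1.

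Per library, the Gria2 share was 27.3, 27.1, 28.05 and 28.1% in controls and 26.8, 24.9, 27.1 and 25.6% in BPA mice. Control replicate 2 and BPA replicate 3 nearly coincided, and otherwise every BPA mouse was below every control. The difference was -1.53 percentage points (two-sided exact permutation p = 0.0571, where the smallest possible is 0.02857), and for Gria1 it was 1.75 points (exact permutation p = 0.0857). For Gria3 it was -0.264 points (exact permutation p = 0.343) and for Gria4 0.043 points (exact permutation p = 0.771). Adjusted over the 4 shares tested, the exact permutation p was 0.171 for both Gria1 and Gria2, so no share passed. On leaving out 1 library the Gria2 difference ran from -1.86 points without BPA replicate 3, the BPA library that overlapped the controls (exact permutation p = 0.0286, the smallest possible), to -1.12 points without BPA replicate 2 (exact permutation p = 0.0857). The exact permutation p was 0.143 without control replicate 1, 3 or 4 and 0.0571 without control replicate 2 or BPA replicate 1 or 4. The Gria3 difference ran from -0.417 points without BPA replicate 1 to -0.077 points without control replicate 1, and was -0.132 points in reads not divided by length. The Gria4 difference ran from -0.021 points without control replicate 2 to 0.177 points without control replicate 1.

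The ratio of Gria1 to Gria2 reads shows the same values free of any length. It was 0.851, 0.879, 0.836 and 0.8293 in controls and 0.883, 0.994, 0.878 and 0.949 in BPA mice. BPA replicate 2, with nearly equal reads of both genes, and BPA replicate 4 were the highest, and control replicate 2 lay just above BPA replicate 3. The means were 0.849 ± 0.0223 and 0.926 ± 0.0553 (n = 4 each), given as a description because the ratio was chosen after the shares were seen.

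**Figure D4:**
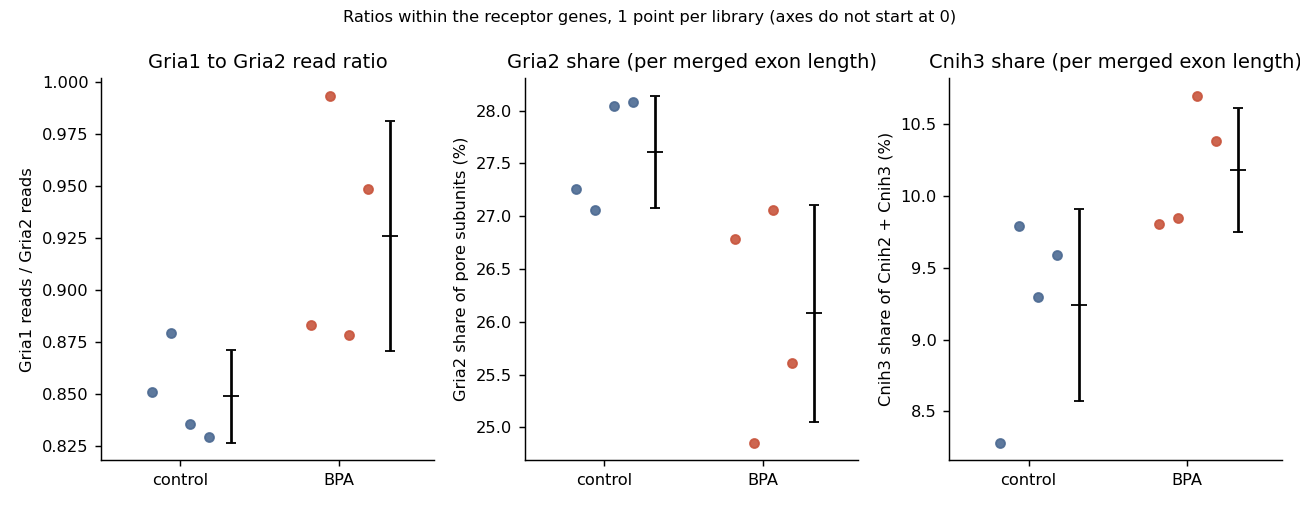
Gria1 to Gria2 read ratio, Gria2 share of the pore subunits and Cnih3 share of Cnih2 plus Cnih3, with 1 point per library and group mean ± SD. The axes do not start at 0. The BPA points spread upward in the first and last panels and downward in the middle one. Control and BPA points touch or overlap in the first and middle panels. In the last panel the lowest BPA point (9.80%) nearly coincides with the highest control point (9.79%).

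Shares within the auxiliary classes were described without a test. The TARP shares are of Cacng2, Cacng3 and Cacng8 together. Other Cacng genes, such as Cacng7 (26.4 ± 2.56 CPM in controls), were left out. Of these TARP members, Cacng3 made up 40.3 ± 3.33% in controls and 42.3 ± 3.20% in BPA mice. Cacng8 made up 36.0 ± 3.34% and 35.3 ± 1.74%, and Cacng2 23.7 ± 0.849% and 22.4 ± 1.73%. BPA replicate 3 had the highest Cacng3 share of all libraries (47.0%) and the lowest Cacng2 share (20.1%). With the longest transcript as the length, Cacng8 (40.6% over all 8 mice) stood above Cacng3 (38.1%), so their order is not fixed by these data.

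Cnih2 made up 90.8 ± 0.668% of Cnih2 and Cnih3 transcripts together in controls and 89.8 ± 0.432% in BPA mice. Cnih1 (41.8 ± 3.39 CPM in controls) and Cnih4 (36.9 ± 0.658 CPM in controls) were left out of this share. The Cnih3 remainder was 8.28, 9.79, 9.30 and 9.59% in controls and 9.80, 9.85, 10.7 and 10.4% in BPA mice. Control replicate 1 was well below the rest, and the lowest BPA mouse exceeded the highest control by less than 0.1 points.

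The next ratios count only the TARP and cornichon members (Cacng2, Cacng3, Cacng8, Cnih2 and Cnih3), not the other Cacng and Cnih genes. Per merged exon length, for every 100 pore subunit transcripts there were 12.7 ± 0.717 TARP transcripts in controls and 13.1 ± 0.662 in BPA mice. Cornichon transcripts numbered 41.7 ± 2.45 and 40.7 ± 2.23. With the longest transcript as the length, TARPs stood at 10.9 ± 0.600 and 11.2 ± 0.494, and cornichons at 33.4 ± 1.91 and 32.8 ± 1.65. The groups overlapped in both ratios at either length. The 4 pore subunits together took 0.317 ± 0.0107% of library counts in controls and 0.317 ± 0.0056% in BPA mice, a difference smaller than either SD.

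Other genes of AMPA receptor function were read from 5 lists with 68 genes, all of which were tested. At an unadjusted p under 0.05 there were 2 higher and 3 lower in BPA mice, against 2.22% and 2.3% of all genes, and 0 passed the adjusted threshold. The median log2 fold change of the 68 was 0.015, with 41 higher and 27 lower. Groups did not overlap for 4 of them. Nsf and Dlg3 were the 2 that lay higher, against 1.37% of all genes, and Frrs1l and Grik5 the 2 that lay lower, against 1.43%.

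Among 15 further auxiliary proteins 1 was higher and 1 lower at that level. In controls, Shisa6, which like Shisa9 belongs to the CKAMP family, was at 286 ± 12.3 CPM, and in BPA mice at 264 ± 10.5 CPM (-0.12 ± 0.048; edgeR unadjusted p = 0.0317, adjusted p = 0.955). Olfm1, a secreted protein found in AMPA receptor complexes, was at 1271 ± 65.6 CPM and 1377 ± 81.9 CPM (0.11 ± 0.051; edgeR unadjusted p = 0.0443, adjusted p = 0.955). The log2 fold change of Shisa6 thus lay below 0 where that of Shisa9 lay above it, a difference between the genes that was not tested.

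Of 10 genes for assembly and export of the receptor, 0 reached an unadjusted p under 0.05. The smallest p was that of Frrs1l, needed for receptor assembly in the endoplasmic reticulum, with control mice at 497 ± 37.4 CPM and BPA mice at 465 ± 2.88 CPM (-0.098 ± 0.052; edgeR unadjusted p = 0.0857). Its log2 fold change was -0.044 without control replicate 4 and 0.000603 with the library total in the fit. Of 26 trafficking and anchoring genes only Nsf, an ATPase that binds GluA2 and recycles fusion machinery, did so, at 1076 ± 26.7 CPM and 1141 ± 27.1 CPM (0.084 ± 0.038; edgeR unadjusted p = 0.0454, adjusted p = 0.955). Dlg3, a scaffold named here after its values were seen, was at 278 ± 9.52 CPM and 292 ± 1.01 CPM (0.069 ± 0.042, or 0.12 with the library total in the fit).

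The 3 RNA editing genes gave no unadjusted p under 0.05. Adarb1, the enzyme that recodes the capitalised codon of Gria2 and named here for that role, averaged 193 ± 7.82 CPM in control and 192 ± 4.59 CPM in BPA mice (-0.0085 ± 0.044; fold interval 0.930 to 1.06), with -0.023 to 0.021 on leaving out 1 library. Adar had the smallest p of the list, with 0.058 ± 0.070, or 0.019 without BPA replicate 4 and -0.064 with the library total in the fit, a change of direction, and its exons overlap those of Chrnb2 on the opposite strand.

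Of the 14 other ionotropic glutamate receptor subunits, 2 were lower at an unadjusted p under 0.05. Grin3a, an NMDA receptor subunit, averaged 81.1 ± 6.50 CPM in control and 73.9 ± 2.86 CPM in BPA mice (-0.13 ± 0.057; edgeR unadjusted p = 0.0349), or -0.080 without control replicate 4 and -0.027 with the library total in the fit. Grik5, a kainate receptor subunit, had a log2 fold change of -1.14 ± 0.21 (edgeR unadjusted p = 1.57e-04, adjusted p = 0.721), and -0.22 with the library total in the fit. For comparison, the log2 fold change farthest from 0 among the 10 AMPA receptor genes in the main fit was the 0.12 of Cacng3. With the library total in the fit it was the 0.33 of Cnih3, farther from 0 than Grik5 in that fit.

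**Figure D5:**
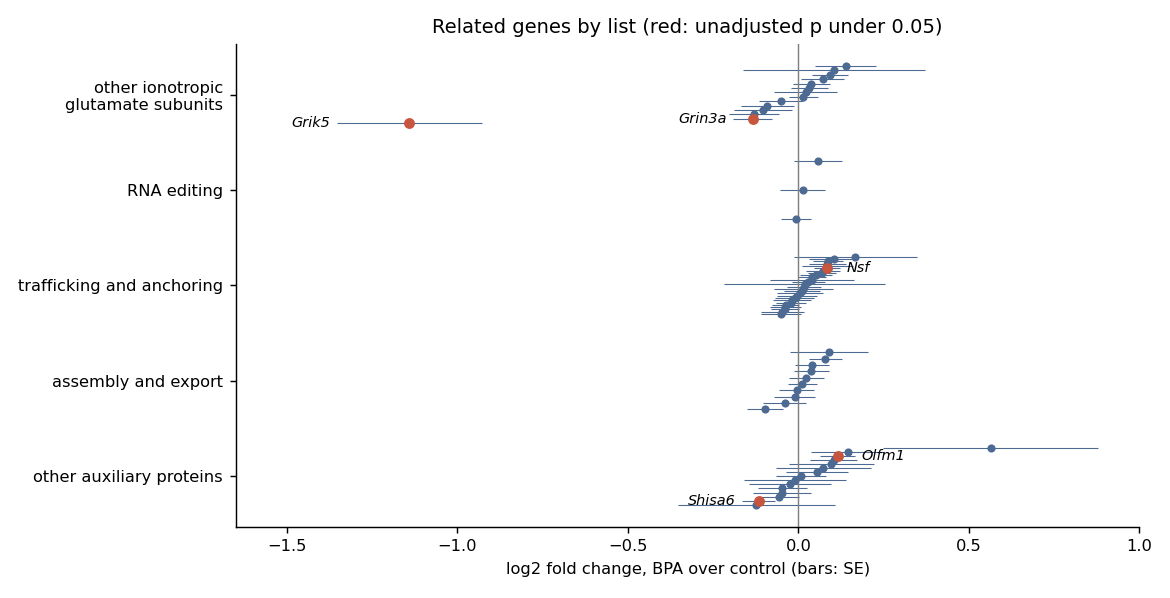
Log2 fold change ± SE of the 68 related genes, BPA over control, in 5 lists, with the 5 genes at an unadjusted p under 0.05 in red and named. Grik5 stands alone at -1.14, and Shisa8, a gene with few reads, has a wide SE at 0.56.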

How the data were processed

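The authors deposited raw read counts per gene symbol for 8 libraries, in whole numbers. The tools named in the submitters' processing notes are featureCounts 1.5.0, STAR 2.3.0e, Trimmomatic 0.32 and DESeq2, with mm10, and, per the file headers, genes follow refGene. Polyadenylated RNA was made into stranded libraries, per the labels' protocols. Columns were matched to samples by the library code in the titles. Here counts were filtered with filterByExpr, scaled with TMM and tested in R 4.3.3 by edgeR 4.0.16 (glmQLFTest), 1 group term, Benjamini-Hochberg over all genes at 0.05. SEs came from the test statistic. limma 3.58.1 (voom) and DESeq2 1.42.0 were alternatives. The code was tested on simulated data. Lengths and positions come from GENCODE vM21 (GRCm38), which gave a length for 99.1% of tested genes. The counts follow refGene, so a merged exon length may include exons that were not counted. Replicate pairs of a group differed beyond sampling noise (chi-square per degree of freedom 9.69 to 23.5 in 12 pairs), so none was counted as a duplicate. Named genes were the 10 members and, in each related list, genes with an unadjusted p under 0.05 or else the smallest p, and, for the pore subunits, the 3 genes whose levels followed theirs most closely; those for Gria3 are not reported here. The members and lists were chosen with earlier results of these data known.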

Additional observations from a re-analysis of the deposited data

Results flagged for a closer look

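In BPA replicate 3, Cacng3 was at 63.6 CPM while the other 3 BPA mice were at 50.8 to 52.7 CPM, a gap that is 0.852 of the range of the 4 and above Dixon's 95% critical value. About 1 in 20 groups passes this value by chance, and 28 groups were examined. The same library had 459 CPM of choroid plexus markers in sum (0 of 7 at 0 in any library), and the part of that tissue in the Cacng3 value was not tested.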

How the results depend on the processing

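Over 16 alternative settings of the fit, none of the 10 genes passed an adjusted p of 0.05 (lowest 0.629), and 155 of 160 log2 fold changes kept their direction. With log2 library total as a covariate, those of Gria2, Cacng2 and Cnih2 turned to 0.057, 0.037 and 0.043, and 1 gene, Cnih3, had an unadjusted p under 0.05; the cause was not tested. In that fit Gria1, Cacng3 and Cacng8 were at 0.091, 0.069 and 0.045. With counts thinned to the smallest total, Gria2, Cacng2 and Cnih2 were at -0.074, -0.024 and -0.048. On leaving out 1 library, log2 fold changes ran from -0.0065 to 0.066 for Gria4 and from -0.045 to 0.078 for Cacng8, and 0 to 2 members had an unadjusted p under 0.05. DESeq2, on 20749 genes, called 7, none of them members, with 627 at an unadjusted p under 0.05; edgeR called 0 of 15434 (698) and, without the filter, 0 of 20777 (897). Related genes at an unadjusted p under 0.05 and higher numbered 1 under RLE scaling, 1 without the filter, 1 with the library total as covariate, 0 with the replicate block and 0 to 5 on leaving out 1 library; those lower numbered 0 with the covariate, 2 with the block and 1 to 4 on leaving out 1 library. Share levels moved with the length, as this changes the divisor. In reads not divided by length the means were 41.4, 46.8, 9.23 and 2.58% for Gria1 to Gria4, 39.1, 35.3 and 25.7% for Cacng2, Cacng3 and Cacng8, and 82.2 and 17.8% for Cnih2 and Cnih3. With the longest transcript they were 52.5, 31.7, 12.5 and 3.33% for Gria1 to Gria4, 21.3% for Cacng2 and 40.6% for Cacng8. With the longest transcript linked to RefSeq, chosen after seeing the data, they were 52.5, 31.7, 12.5 and 3.33%, and 18.5, 33.1 and 48.4% for Cacng2, Cacng3 and Cacng8. Leaving out 1 library moved the Gria2 difference between -1.86 and -1.12 points and the Gria4 difference between -0.021 and 0.18 points. The titles number replicates 1 to 4 in both groups, but samples with the same number did not deviate together (correlations -0.366 to -0.0194); with the replicate block edgeR called 0 genes and 498 had an unadjusted p under 0.05.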

Other observations

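Levels of the 10 genes were also set side by side as deviations of log2 CPM from the group mean, over 8 libraries. Pearson's r was above 0 for 29 of the 45 pairs, with a median of 0.12. The extremes were Gria2 with Cnih3 (r = 0.91, Spearman's rho = 0.90, and r = 0.90 without the 2 libraries farthest from the median of Gria2) and Cacng8 with Shisa9 (r = -0.80, rho = -0.69, and r = -0.23 without the 2 libraries farthest from the median of Cacng8). These are the highest and lowest of 45 values and are given as a description with no test.

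By the same measure, the genes most like Gria1 among 10597 with at least 5 CPM were Eif3e, a translation initiation factor subunit (r = 0.99), Rpl7, a ribosomal protein (0.98), and Golga2, a Golgi matrix protein (0.97). Closest to Gria2 were Ywhaz, a 14-3-3 protein (0.996), Abi2 (0.98) and Prokr2, a prokineticin receptor (0.98). For Gria4 they were Bicd1, a motor adaptor (0.99), Syt4, a synaptotagmin (0.98), and Zfp958 (0.97). The libraries share depth and dissection, and each gene was picked as the highest of many comparisons over 8 libraries.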
